A study of Mus musculus with 6 samples.

Results

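The genes described here are 33 genes of homologous recombination and the Fanconi anemia pathway, measured by RNA-seq in mouse retina at postnatal day 21. They were chosen by name, from a hand-written list, and each had to reach a summed count of at least 10 over the 6 retinae. All 33 did so, among 16904 genes that passed that filter and 24062 genes in the table of counts. The study compared 3 retinae from *Chx10-Cre Rb1* lox/lox p107-/- mice, in which the retinoblastoma gene *Rb1* and its relative p107 (*Rbl1*) are lost and tumors form (*Rb1/p107* DKO), with 3 retinae that also carried *Hells* lox/lox (*Rb1/p107/Hells* TKO), to ask what the loss of the chromatin remodeler HELLS changes in a retina that lacks the RB family repressors. Both groups were labelled C57BL/6 (C57BL/6N in the methods of the study), and both carried the Cre transgene and the loss of *Rb1* and p107, so that *Hells* was the allele by which they differed and no wild-type retina entered the comparison. The *Chx10* promoter drives Cre in retinal progenitor cells in a mosaic pattern, so a retina of either genotype also holds cells in which the lox alleles were not recombined.

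Homologous recombination repairs a broken chromosome by copying the sister chromatid, and so works after DNA has been replicated. The break is trimmed to single-stranded DNA by the MRE11-RAD50-NBN complex, CtIP (*Rbbp8*), EXO1 and BLM, a step that the BRCA1-BARD1 complex promotes, and PALB2 and BRCA2 then prepare the single strand for the search of its match, which the BCDX2 and CX3 complexes and the RAD54 proteins assist. The Fanconi pathway handles crosslinks between the strands of DNA: a core complex of FANC proteins, with the ubiquitin-conjugating enzyme UBE2T, attaches ubiquitin to FANCD2 and FANCI at a stalled replication fork, and nucleases held by SLX4 then cut the crosslink out. Many of these genes are transcribed mainly in dividing cells, under E2F factors that RB family proteins restrain.

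The counts of a retina summed to between 10343907 and 14203098. *Hells* itself, counted over the whole gene although the allele targets a part of it, had normalized counts of 60.8, 68.4 and 83.5 in TKO replicates 1 to 3 and of 678, 523 and 395 in DKO replicates 1 to 3, 7.5-fold lower in the TKO (adjusted p = 0.00359, edgeR quasi-likelihood F test with Benjamini-Hochberg adjustment over all 16904 genes, as for every adjusted p below). *Rb1* had a log2 fold change of 0.34 (adjusted p = 0.0388, but above 0.05 with scaling by total counts and in each fit that left out 1 retina other than TKO replicate 3) and *Rbl1* of 0.13 (adjusted p = 0.839). The genotypes also differed in other ways that bear on bulk tissue: 7 of 7 rod markers rose in the TKO (median log2 fold change 1.84; 4, 4 and 3 of them without TKO replicate 2, DKO replicate 1 and DKO replicate 2), 13 of 13 S phase markers and 12 of 13 mitosis markers fell, 3 of 5 microglia markers fell (0 without TKO replicate 2, DKO replicate 1 or DKO replicate 2, and 1 without TKO replicate 1), and 3 of 5 lens markers rose (1 without DKO replicate 1 or DKO replicate 2). Of the Müller glia markers 2 of 4 rose, also without any 1 of the retinae (3279 to 3964 CPM, counts scaled to a common library size, summed in the TKO and 1944 to 2153 in the DKO). All 5 cone markers lay above 0 and 2 rose (0 without TKO replicate 1, TKO replicate 2, DKO replicate 1 or DKO replicate 2, 5 without TKO replicate 3 and 4 without DKO replicate 3). Of the bipolar, pigment epithelium and endothelium markers 1 each rose, and 0 when any retina but a replicate 3 was left out. No amacrine, horizontal or ganglion marker passed (2 lower and 1 higher at an unadjusted p under 0.05). By DESeq2, 1 amacrine and 1 horizontal marker fell and 1 amacrine marker rose with an adjusted p of at most 0.05. Lens markers summed to 33.1 to 229 CPM in the TKO against 3.53 to 4.03 in the DKO. The *Lim2* gene of the lens was the only marker with a count of 0 in any retina (TKO replicate 1 and the 3 DKO). Y-linked counts were present in TKO replicate 1 and in DKO replicates 1 and 2 and absent from the other 3 retinae, so that sex was mixed unevenly with genotype. Nothing in the sources says that the 3 retinae of a genotype came from separate litters, and p-values measure the spread between these retinae.

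Most genes of recombination and crosslink repair had lower counts in the TKO, and the sizes of the differences ranged widely across the pathway. Of the 33 genes, 28 had a log2 fold change below 0, as did 8657 of the 16904 genes tested. With an adjusted p of at most 0.05, 12 (36.4%) fell, where 9.20% of all genes tested did, and 1 (*Fance*, 3.03%) rose, where 7.35% of all genes did. Genes were called differentially expressed when they also changed by 1 or more on the log2 scale and averaged 10 or more normalized counts, and 9 (27.3%) were called lower, against 4.38% of all genes, and 0 higher, against 1.97%. At an unadjusted p under 0.05, 21 genes were lower and 1 was higher, and DESeq2 also gave 9 lower and 0 higher. The shares of all genes at that cut and by that tool are not given here, so these counts stand without a background. The 12 genes that fell were *Exo1*, *Brip1*, *Bard1*, *Rbbp8*, *Brca1*, *Rad54l*, *Rad51ap1*, *Rad54b*, *Fancb*, *Fanca*, *Ube2t* and *Fancd2*, with log2 fold changes from -2.46 to -0.88. The other 20 had adjusted p from 0.0505 to 0.988 and log2 fold changes from -1.18 to 0.19. The median log2 fold change over the 33 genes was -0.60, beside -0.01 over all genes tested. In 21 genes (63.6%) every TKO retina lay below every DKO retina, against 20.6% of all genes, and the groups were apart in either direction in 24 (72.7%, against 38.6% of all genes), the TKO being the higher for *Fance*, *Fancc* and *Slx4*. In the other 9 the groups overlapped. In a whole retina, fewer cells that transcribe a gene and less RNA per cell cannot be told apart.

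**Figure D1:**
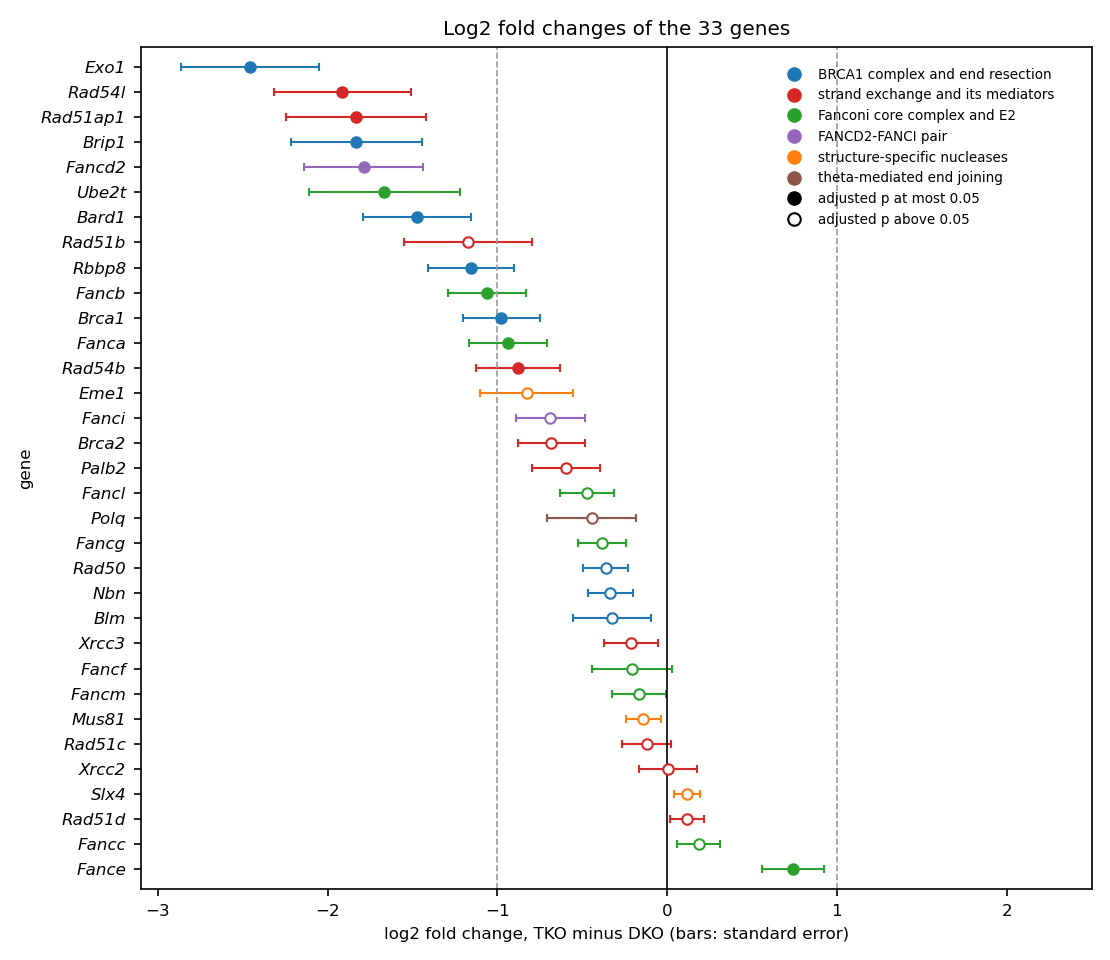
Log2 fold change of each of the 33 genes in TKO against DKO retinae (x axis, bars show the standard error) with the genes on the y axis, colored by role, filled where the adjusted p was at most 0.05. The 12 filled points on the left run from *Exo1* at -2.46 to *Rad54b* at -0.88, and *Fance* at 0.74 is the only filled point on the right.

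The replicates were not alike. Over the 33 genes, the median deviation of the log2 normalized count from each gene's mean over the 6 retinae was -0.27, -0.41 and -0.15 in TKO replicates 1, 2 and 3 and 0.59, 0.29 and 0.02 in DKO replicates 1, 2 and 3. The third retina of each genotype thus lay nearest to the other genotype. DKO replicate 3 was the lowest DKO retina for each of the 12 genes that fell, and TKO replicate 3 the highest TKO retina for 10 of them. Without TKO replicate 3, 14 of the 33 genes fell with an adjusted p of at most 0.05, and without DKO replicate 3, 17 did. Without TKO replicate 1 the number was 2, and it was 1 without TKO replicate 2, without DKO replicate 1 or without DKO replicate 2. The number of genes called over the whole table also moved widely between these fits, as given in the section on processing below. The shares of all genes in each fit are not given here, so these counts and those by role are not particular to the 33 genes. *Exo1* passed in each of these 6 fits and *Fancd2* in 3, while each of the other genes that passed did so in 1 or 2, and none of the 13 changed sign. *Fance* passed without TKO replicate 3 and without DKO replicate 3 and in none of the other 4 fits. By role, leaving out any of the other 4 retinae kept 1 of the 5 genes of the BRCA1 complex and end resection, 0 of the 3 of strand exchange and its mediators, 0 of the 3 of the core complex group and at most 1 of the FANCD2-FANCI pair past the threshold. Without DKO replicate 3 the strand exchange group had 5 such genes, and without TKO replicate 3 or without DKO replicate 3 the FANCD2-FANCI pair had 2 and the nucleases 1.

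The same genes were compared among retinae alike in Y-linked counts. Over all 33, the median log2 ratio of TKO to DKO was -0.65 in the 3 retinae with Y-linked counts, with 29 genes below 0, and -0.25 in the 3 without, with 24 below 0. Each of these splits holds 1 retina of one genotype and gives no test. With the presence of Y-linked counts as a term of the model, 4 of the 33 genes fell with an adjusted p of at most 0.05 (*Exo1*, *Brip1*, *Fancd2* and *Fancb*), 0 rose, and 18 were lower and 1 was higher at an unadjusted p under 0.05. These comparisons were chosen after the data had been seen.

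Promoters are shown here for genes that moved together and for a contrast. Of the 33 genes, 25 had a promoter window in the RefSeq table for GRCm38.p6. It ran from 250 bases before to 50 bases after a start of transcription listed there. For *Slx4*, *Fancc* and *Fancl* that window lay inside the gene by the gene coordinates used here, away from its outermost start. Each window was searched on both strands for the E2F-type cores TTCCCGC and TTCGCGC, for those spelled TTGCCGC or, last, TTGGCGC, for the CCAAT box (CCAAT) and for the cell cycle homology region (TTTGAA or TTCGAA), an element that the DREAM and MuvB complexes read in genes of late cell cycle. An E2F-type core and a CCAAT box can share bases. The sequences below are *Brip1*, *Rad54l* and *Fancb*, which had the smallest adjusted p of their role groups among genes with a window and a motif, and *Rad51c* (adjusted p = 0.597), all 5′ to 3′ on the strand of the gene and ending at the base before its start. Each is cut where an exon of another gene begins, and capitals mark E2F-type cores and CCAAT boxes on either strand.
Brip1, 176 bases at chr11:86201194-86201369, minus strand: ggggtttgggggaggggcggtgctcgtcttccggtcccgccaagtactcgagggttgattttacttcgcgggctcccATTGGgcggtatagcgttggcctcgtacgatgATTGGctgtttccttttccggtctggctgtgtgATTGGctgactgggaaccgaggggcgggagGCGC
Rad54l, 149 bases at chr4:116123691-116123839, minus strand: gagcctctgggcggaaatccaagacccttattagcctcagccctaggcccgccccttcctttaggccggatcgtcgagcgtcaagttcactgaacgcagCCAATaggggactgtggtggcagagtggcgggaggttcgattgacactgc
Fancb, 216 bases at chrX:164980376-164980591, plus strand: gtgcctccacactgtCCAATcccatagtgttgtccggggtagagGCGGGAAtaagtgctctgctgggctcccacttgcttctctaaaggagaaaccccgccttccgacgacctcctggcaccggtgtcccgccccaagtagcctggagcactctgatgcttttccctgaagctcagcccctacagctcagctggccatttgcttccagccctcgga
Rad51c, 110 bases at chr11:87404955-87405064, minus strand: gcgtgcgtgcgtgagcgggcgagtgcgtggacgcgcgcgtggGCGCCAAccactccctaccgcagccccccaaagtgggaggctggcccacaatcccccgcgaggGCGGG

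In *Brip1*, the CCAAT boxes (read as ATTGG) begin at positions -99, -67 and -34 relative to the start, and an E2F-type core at -4 runs on past the end of the printed stretch. *Rad54l* has a CCAAT box at -50 and no E2F-type core in its window. *Fancb* has an E2F-type core at -172 and a CCAAT box at -201. *Rad51c*, which did not pass the test, has E2F-type cores at -68 and -5, the latter running past the end shown, and no CCAAT box. An E2F-type core was thus present with and without a fall in expression.

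Counted over all windows, an E2F-type core lay in 14 of the 25 genes (56.0%), beside 17.9% of the 12429 genes tested that have a window and 24.7% of the 530 among them called lower in the TKO. It was in 6 of 8 genes that fell (75.0%) and in 8 of the other 17 (47.1%). A CCAAT box lay in 16 of the 25 (64.0%), beside 42.0% of genes tested, and in 7 of the 8 that fell (87.5%) against 9 of the other 17 (52.9%). The cell cycle homology region lay in 4 of the 25 (16.0%), 1 of them among the 8 that fell, beside 16.3% of genes tested and 30.4% of genes called lower. *Slx4*, *Fancc* and *Fancl*, whose windows lay inside the gene, are among the other 17. None of them had an E2F-type core, so the share of the other 17 is not one of promoters alone. These shares describe the letters of the windows and were not tested, and 4 of the 12 genes that fell (*Exo1*, *Rbbp8*, *Rad54b* and *Fancd2*) had no window.

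Among genes of the BRCA1 complex and of end resection, 5 of 8 fell and 3 did not pass the test, with a median log2 fold change of -1.07. *Exo1*, the exonuclease that lengthens the single-stranded tail at a break (chr1:175880581-175913489, plus strand, GRCm38), had normalized counts of 16.1, 28.4 and 58.9 in the TKO and of 237, 187 and 140 in the DKO, and fell 5.49-fold (log2 fold change -2.46 ± 0.41 SE, adjusted p = 0.00898). Its highest TKO retina had less than the lowest DKO retina, and the TKO values were themselves spread, with TKO replicate 3 well above TKO replicate 1. It was the largest fall of the 33 genes. *Brip1*, the helicase that binds the BRCT repeats of BRCA1 (chr11:86058138-86201193, minus strand), had 22.9, 31.6 and 56.5 in the TKO against 191, 110 and 92.4 in the DKO, and fell 3.56-fold (-1.83 ± 0.39, adjusted p = 0.0174). *Bard1*, the obligate RING partner of BRCA1 (chr1:71027498-71103146, minus strand), had 36.7, 41.1 and 47.9 against 172, 101 and 76.8, and fell 2.78-fold (-1.47 ± 0.32, adjusted p = 0.0186). In both genes DKO replicate 1 stood above the other DKO retinae, and the TKO retinae lay closer together for *Bard1* than for *Brip1*.

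*Rbbp8*, which encodes CtIP, the factor that starts resection, fell 2.22-fold (-1.15, adjusted p = 0.0198) and *Brca1* 1.97-fold (-0.98, adjusted p = 0.0238), so that *Brca1* fell by less than its partners *Bard1* and *Brip1*, a difference between genes that was not tested. *Nbn*, *Rad50* and *Blm* did not pass the test. *Nbn*, which recruits MRE11 and the kinase ATM to breaks (chr4:15957925-15992589, plus strand), had the largest mean count of the group, with 235, 301 and 317 in the TKO against 369, 370 and 337 in the DKO (-0.34 ± 0.13, adjusted p = 0.119). The groups did not overlap, although TKO replicate 3 and DKO replicate 3 were near each other. *Rad50*, its structural partner, had a log2 fold change of -0.36 (adjusted p = 0.0951) with groups that did not overlap, and *Blm*, the helicase that resects with DNA2 and dissolves crossover intermediates, of -0.33 (adjusted p = 0.354) with groups that overlapped.

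Among genes of strand exchange and its mediators, 3 of 10 fell and 7 did not pass the test (median log2 fold change -0.64). *Rad54l*, the motor that drives strand invasion (chr4:116094264-116123690, minus strand), had 25.2, 21.1 and 46.6 in the TKO and 165, 117 and 66.5 in the DKO, and fell 3.77-fold (-1.91 ± 0.41, adjusted p = 0.0178). *Rad51ap1*, which stimulates the forming of joint molecules (chr6:126923050-126939587, minus strand), had 34.4, 49.5 and 114 against 293, 250 and 159, and fell 3.56-fold (-1.83 ± 0.41, adjusted p = 0.0215). In both, the groups did not overlap, and TKO replicate 3 and DKO replicate 3 were the pair nearest to each other across genotypes. *Rad54b*, a relative of *Rad54l*, had 78.0, 70.5 and 62.6 against 144, 158 and 87.2 and fell 1.84-fold (-0.88 ± 0.25, adjusted p = 0.0444). Of its exon length, 35.8% is shared with *Fsbp* on the same strand, so reads from there cannot be assigned to it with certainty, and 15.4% of the exon length of *Rad54l* is shared with *Lrrc41* on the other strand.

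The mediators and the genes of the BCDX2 and CX3 complexes did not pass the test with all 6 retinae. *Brca2*, the main mediator, had an adjusted p just above the threshold (-0.68, adjusted p = 0.0505), and it passed in 8 of 16 alternatives, DESeq2 among them (adjusted p = 0.0139). *Palb2*, the bridge between BRCA1 and BRCA2, had one of 0.0783 (-0.60), and in both genes every TKO retina lay below every DKO retina. Of the 5 genes of the BCDX2 and CX3 complexes, *Rad51b* had the most negative value, on low counts (12.6 to 20.9 in the TKO and 21.6 to 45.5 in the DKO, log2 fold change -1.18, adjusted p = 0.0678). The others had values of -0.21 for *Xrcc3*, -0.12 for *Rad51c*, 0.00 for *Xrcc2* and 0.12 for *Rad51d*, with adjusted p from 0.383 to 0.988 and groups that overlapped. *Rad51d* (chr11:82876434-82890614, minus strand), the member of this group with the largest mean count, had 329, 341 and 320 in the TKO and 293, 327 and 294 in the DKO (0.12 ± 0.10, adjusted p = 0.462). DKO replicate 2 lay within the TKO range, and the sign of *Rad51d* and of *Xrcc2* turned when libraries were scaled by total counts (-0.04 and -0.16).

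Among the Fanconi core complex and its E2 enzyme, 3 of 9 genes fell, 1 rose and 5 did not pass the test (median log2 fold change -0.38). *Fancb*, an X-linked subunit of the catalytic module (chrX:164980592-164997272, plus strand), had 29.8, 34.7 and 29.5 in the TKO and 73.4, 70.0 and 53.5 in the DKO, and fell 2.09-fold (-1.06 ± 0.23, adjusted p = 0.0194). Its groups were well apart, including the third replicates. *Fanca*, the subunit that pairs with FANCG (chr8:123268300-123318576, minus strand), had 151, 135 and 195 against 406, 288 and 228 and fell 1.92-fold (-0.94 ± 0.23, adjusted p = 0.0288), and 10.5% of its exon length is shared with *Zfp276* on the other strand. *Ube2t*, the E2 enzyme that gives ubiquitin to FANCD2, fell 3.17-fold (-1.67, adjusted p = 0.0379), with 11.5 to 43.0 in the TKO and 54.4 to 108 in the DKO. Its TKO retinae were spread more widely, for their level, than those of *Fancb* and *Fanca*.

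*Fance*, which bridges the core complex to FANCD2 (chr17:28313519-28326572, plus strand), went the other way. Its normalized counts were 698, 617 and 506 in the TKO and 307, 319 and 463 in the DKO, 1.67-fold higher in the TKO (0.74 ± 0.18, adjusted p = 0.0286). It had the largest mean count of the core group and was alone among the 33 genes in rising past the threshold. TKO replicate 3 and DKO replicate 3 lay nearest to each other for *Fance* as well. The rod markers, which rose together in the TKO, placed the retinae in the same order except for DKO replicates 1 and 2. Their summed level was 25090 to 51500 CPM in the TKO and 8546 to 16300 in the DKO, and the part of this in the values of *Fance* was not tested. The other core genes were *Fancl*, the ubiquitin ligase subunit (-0.47, adjusted p = 0.0751), *Fancg* (-0.38, adjusted p = 0.102), *Fancf* (-0.21, adjusted p = 0.582), *Fancm*, the DNA translocase (-0.17, adjusted p = 0.50) and *Fancc* (0.19, adjusted p = 0.340). *Fancl* and *Fancg* had groups that did not overlap, *Fancf* and *Fancm* groups that did, and every TKO retina lay above every DKO retina for *Fancc*. *Fancl*, *Fancf* and *Fancc* share 13.7%, 15.0% and 16.4% of their exon length with a gene on the other strand.

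Of the FANCD2-FANCI pair, the substrate of the core complex, 1 gene fell and 1 did not pass the test. *Fancd2* (chr6:113531682-113597017, plus strand) had 33.3, 35.8 and 61.4 in the TKO and 209, 147 and 93.3 in the DKO, and fell 3.45-fold (-1.79 ± 0.35, adjusted p = 0.0138). Each TKO retina was below each DKO retina, and the DKO retinae differed more among themselves than the TKO retinae did. *Fanci* (chr7:79391929-79450264, plus strand), its clamp partner, had 141, 144 and 180 against 314, 246 and 190, and did not pass the test (-0.69 ± 0.20, adjusted p = 0.0512), although it did in 9 of 16 alternatives, DESeq2 among them (adjusted p = 0.0187). TKO replicate 3 and DKO replicate 3 were close for *Fanci*, and 16.0% of its exon length is shared with *Polg* on the other strand.

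The nucleases that cut crosslinks and branched DNA did not pass the test. *Slx4*, the scaffold that holds them (chr16:3979105-4003770, minus strand), had the largest mean count of the 33 genes, with 1010, 964 and 920 in the TKO and 849, 918 and 904 in the DKO (0.12 ± 0.08, adjusted p = 0.327), and its sign turned under scaling by total counts (-0.04). The TKO retinae lay above the DKO retinae by a narrow margin. *Mus81*, the nuclease subunit, had a log2 fold change of -0.14 (adjusted p = 0.373), with groups that did not overlap. *Eme1*, its regulatory partner, had -0.83 (adjusted p = 0.0755), with TKO replicate 3 above DKO replicate 3. Of the 3 genes, 1 was lower at an unadjusted p under 0.05 and DESeq2 passed 1. *Polq*, the polymerase of theta-mediated end joining, a route used when recombination fails, had -0.44 (adjusted p = 0.273), and its groups overlapped.

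**Figure D2:**
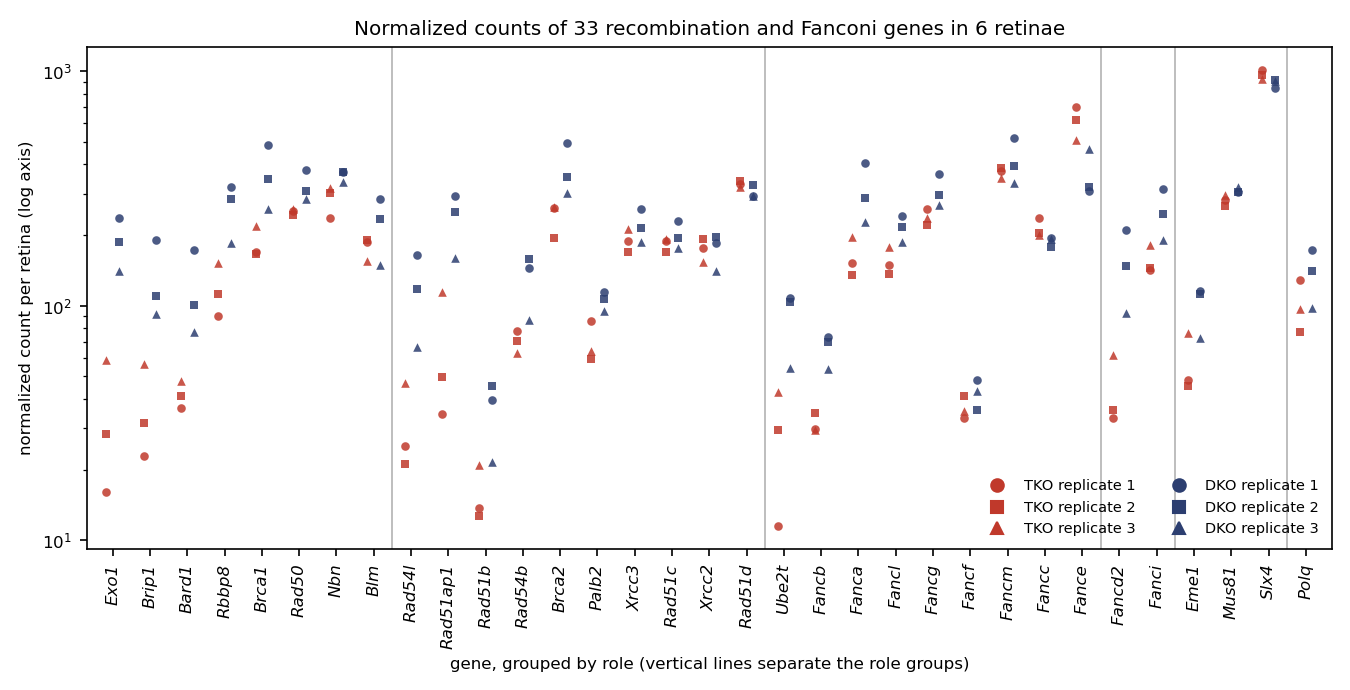
Normalized counts (y axis, log scale) of the 33 genes (x axis, grouped by role and ordered by fold change within a group) in the 3 TKO and 3 DKO retinae, 1 point per retina, with the marker shape giving the replicate. *Exo1* spans 16.1 to 237, *Slx4* stays between 849 and 1010, and the triangles, the third replicate of each genotype, lie between the other retinae for most of the genes that fell.

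Per length, the order of the genes shifted with genotype. On the scale of counts per exon length and library size (RPKM), *Nbn* was the highest of the 33 in the DKO (11.2 ± 0.59 SD, n = 3), followed by *Slx4* (9.19 ± 0.38) and *Fance* (8.98 ± 2.15), and the last pair did not differ beyond their spread. In the TKO *Fance* was the highest (15.0 ± 2.40), followed by *Slx4* (9.96 ± 0.47) and *Nbn* (8.87 ± 1.35). Among the 33, the genes that fell ranked from 10 (*Rad51ap1*) to 30 (*Rad54l*) in the DKO. The lowest in the DKO, *Palb2*, *Polq* and *Rad51b*, did not pass the test. In the DKO, *Rad51ap1* had 3.84, *Brca1* 3.36 and *Fanca* 2.77, and the other 9 genes that fell had between 1.19 (*Rad54l*) and 1.77 (*Rad54b*). In the TKO, *Rad54l* (0.32 ± 0.14), *Exo1* (0.32 ± 0.21) and *Rad51b* (0.33 ± 0.09) had the lowest levels, with differences well inside their spread. *Rad51ap1* ranked 10 among the 33 genes in the DKO and 21 in the TKO, and *Exo1* ranked 23 and 32.

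Where a recombination gene starts beside a gene on the other strand, the pair can be compared at the same locus. A protein-coding gene that started on the other strand, at most 1000 bases away and overlapping by at most 200, was found for 10 of the 33 genes, a comparison chosen after values had been seen. Of the 10 neighbors, 0 fell and 1 rose with an adjusted p of at most 0.05, numbers near the shares of all genes (9.20% and 7.35%). The median log2 fold change was 0.13 over the neighbors and -1.02 over the recombination genes. For *Rad54l* (-1.91) the neighbor was *Pomgnt1* (0.22, adjusted p = 0.0690), whose start lies 150 bases away at the far end of the sequence printed above. For *Rad51ap1* (-1.83) it was *D6Wsu163e* (0.19, adjusted p = 0.292), for *Fancd2* (-1.79) *Emc3* (-0.07, adjusted p = 0.606) and for *Fancb* (-1.06) *Mospd2* (-0.19, adjusted p = 0.312). *Nbr1*, 194 bases from *Brca1* (-0.98), was the neighbor that rose (0.46 ± 0.10, adjusted p = 0.0191). *Tex14*, beside *Rad51c* (-0.12), had the most positive value (0.56, adjusted p = 0.146), and *Zfyve26*, beside *Rad51b* (-1.18), had 0.40 (adjusted p = 0.0596). Each neighbor value lay above that of the recombination gene beside it, in 10 of 10 pairs. The 10 recombination genes were all below 0, while the median of all genes tested was -0.01. This order was therefore largely set beforehand and says little about the neighbors.

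**Figure D3:**
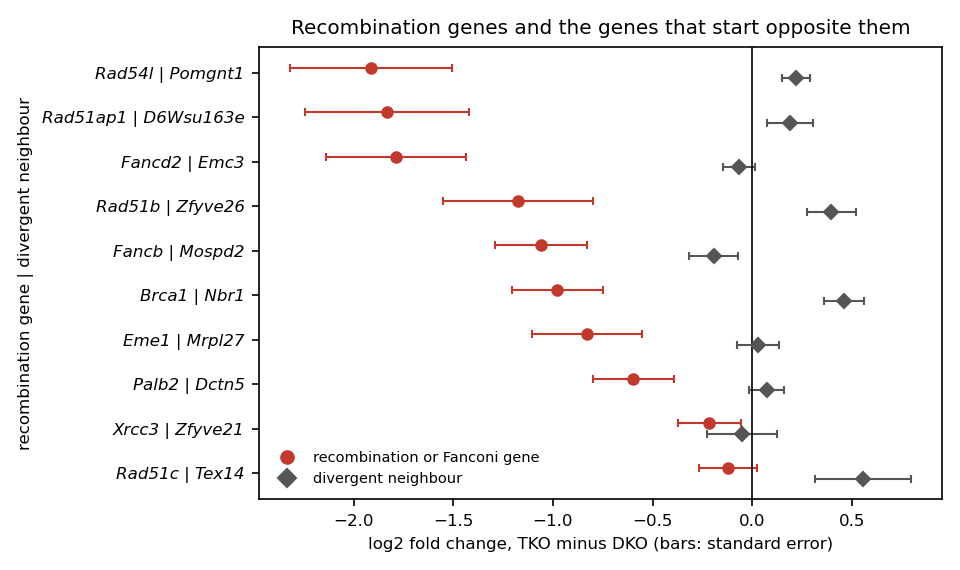
Log2 fold change in TKO against DKO retinae (x axis, bars show the standard error) of 10 recombination genes (circles) and of the gene that starts on the other strand beside each (diamonds), with the pairs on the y axis. The diamonds run from -0.19 to 0.56, with a median of 0.13, and the circles from -1.91 to -0.12.

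The rest of the pathway and the neighboring repair systems were read from hand-written lists. Of 43 other recombination and Fanconi genes tested (of 45 listed, *Faap24* and *Faap100* having no row under those symbols), 10 fell and 0 rose with an adjusted p of at most 0.05, and 33 did not pass (median log2 fold change -0.17). At an unadjusted p under 0.05, 17 were lower and 1 was higher, and DESeq2 passed 13 and 1. The number that fell was 3 without TKO replicate 2 and 5 without DKO replicate 1 or DKO replicate 2. *Rpa2*, a subunit of the single-strand binding complex, fell by 0.73 on the log2 scale (adjusted p = 0.00766). *Rpa1*, the most highly counted of the list, had -0.18 (adjusted p = 0.191).

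Non-homologous end joining, which rejoins breaks without a template and also works in cells that do not divide, had 0 of 11 genes past the threshold in either direction, with 0 lower and 1 higher at an unadjusted p under 0.05 and 0 by DESeq2. With 9.20% of all genes falling and 7.35% rising, the counts of this list and of the mismatch and nucleotide excision repair lists were near the background. The median log2 fold change of the end joining genes was 0.10, or -0.06 with scaling by total counts, a scaling that moved the median of all genes to -0.17. *Poll* had 0.30 (adjusted p = 0.0994), *Lig4* -0.24 (adjusted p = 0.203) and *Trp53bp1* 0.07 (adjusted p = 0.671). In mismatch repair 1 of 7 genes fell, *Msh6* (-0.54, adjusted p = 0.0218). In nucleotide excision repair 1 of 13 rose, *Ercc2* (0.55, adjusted p = 0.0133), and *Ddb1* had 0.36 (adjusted p = 0.0564). In base excision and single-strand break repair 5 of 13 fell and 0 rose, among them the flap endonuclease *Fen1* (-0.85, adjusted p = 0.00700), *Apex1* (-0.61, adjusted p = 0.0101) and *Parp1* (-0.27, adjusted p = 0.0439). That number was 2 without DKO replicate 1 and 1 without DKO replicate 2 or TKO replicate 2, and no mismatch repair gene fell without TKO replicate 1, TKO replicate 2, DKO replicate 1 or DKO replicate 2, while 2 did without DKO replicate 3. No nucleotide excision repair gene rose without TKO replicate 2, DKO replicate 1 or DKO replicate 2, while 2 did without DKO replicate 3 and 3 without TKO replicate 3.

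The proliferation markers fell in the same retinae. All 13 S phase markers fell (median -1.59), among them *Pcna*, the replication clamp (-1.27, adjusted p = 0.00821), and *Mcm3*, a subunit of the replicative helicase (-1.91, adjusted p = 0.00833). The count for S phase was 4, 7 and 6 without TKO replicate 2, DKO replicate 1 and DKO replicate 2. Of 13 mitosis markers 12 fell (median -2.59), among them *Ccnb2* (-2.50, adjusted p = 0.00677), *Prc1* (-2.82, adjusted p = 0.00680) and *Top2a* (-3.21, adjusted p = 0.00780), and *Bub1b* did not pass (-0.55, adjusted p = 0.107). Mitosis markers summed to 85.6 to 240 CPM in the TKO and 531 to 1086 in the DKO, S phase markers to 249 to 535 against 856 to 1298, and the 33 recombination and Fanconi genes to 453 to 483 against 518 to 701. The median deviation of the mitosis markers was -2.04, -1.33 and -0.49 in TKO replicates 1, 2 and 3 and 1.72, 1.57 and 0.77 in DKO replicates 1, 2 and 3. The third retina of each genotype was nearest to the other genotype here as it was for the recombination genes. Rod markers rose and 3 of 5 microglia markers fell in the same retinae (the 5 summed to 51.4 to 82.5 CPM in the TKO and 94.9 to 139 in the DKO). The microglia number was 0 without TKO replicate 2, DKO replicate 1 or DKO replicate 2. The part of proliferation or of cell makeup in the values of the 33 genes was not tested.

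**Figure D4:**
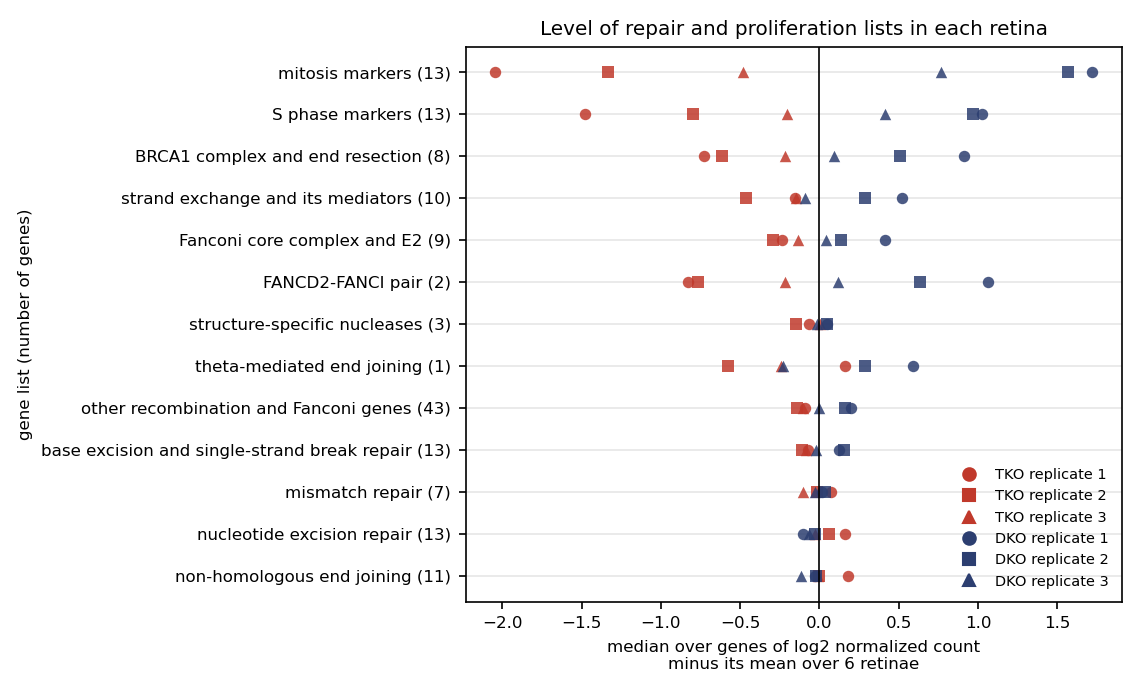
Level of each list of repair and proliferation genes (y axis, with its number of genes) in each retina, as the median over its genes of the log2 normalized count minus the mean over the 6 retinae (x axis), 1 point per retina. Of the lists shown, mitosis and S phase markers spread widest, from -2.04 to 1.72 and from -1.48 to 1.03. The BRCA1 and FANCD2-FANCI groups spread less. The nuclease group, the other recombination genes and the base excision, mismatch, nucleotide excision and end joining lists stay near 0.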

How the data were processed

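Retinal RNA-seq of 3 TKO and 3 DKO mice was analysed, with groups taken from the genotype in the sample labels. The deposited values are raw counts per gene symbol, made by the authors from a stranded mRNA library. The paper's methods name STAR and HTSeq and the submitters' processing notes TopHat2 and featureCounts, both with GRCm38, and the strand setting is not given in the sources used here, so genes that share exons are less certain. Genes had to reach a summed count of 10. Differential expression was tested by the quasi-likelihood F test of edgeR 4.0.16 with TMM scaling (R 4.3.3) and Benjamini-Hochberg adjustment over 16904 genes, and the standard error of a fold change was derived from its F statistic. DESeq2 1.42.0, the tool of the study, was an alternative, and its size factors gave the mean normalized count. Values per retina were scaled by the TMM effective library size. Depth was 10343907 to 14203098 counts per retina, which limits the low counts here. The fit was tested on simulated counts with the same dispersion for every gene and no sex or replicate structure. That test does not cover the spread between these retinae.

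Coordinates and exon lengths came from GENCODE M21 on GRCm38, and promoters from RefSeq on GRCm38.p6. Members, lists and tests were chosen with earlier results of these data known. Per-retina values were given for the 3 members of each role group with the smallest adjusted p among those past 0.05 and for the one with the largest mean count, and of other repair and proliferation lists the 2 genes with the smallest adjusted p and the one with the largest mean count were named. *Bub1b*, *Neil3*, *Ung* and the neighboring genes were named after their values were seen. Alternatives were other scalings, filters and tools, a block for the replicate number, leaving out each retina, stricter and looser thresholds and, added after the data were seen, removal of the third retina of each genotype and a term for Y-linked counts. Replicate retinae were further apart than counting noise allows (chi-square over degrees of freedom, 8.97 to 26.6). Some genes of the hand-written lists entered the list counts, but their own values are not reported here.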

Additional observations from a re-analysis of the deposited data

How the results depend on the processing

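Exo1, Brip1, Fancd2 and the other members past the threshold kept their direction under each alternative, but the number of calls did not hold. With a replicate block, 75 genes were called lower and 15 higher, and of the 33 members 0 were called lower, 0 fell and 0 rose at the adjusted threshold (19 lower and 1 higher at an unadjusted p under 0.05). Same-numbered retinae deviated from their genotype means with correlations of 0.07, -0.05 and -0.17. With so few retinae per genotype, these values cannot show whether retinae were paired by number. A shared litter or batch was not tested. Leaving out 1 retina gave 312 to 1024 genes called lower, 121 to 476 called higher, 1 to 14 members called lower, 1 to 17 that fell, 0 to 1 that rose and a member median from -0.66 to -0.46. Removing the third retina of each genotype gave 1210 genes lower and 663 higher, 14 members called lower, 1 called higher, 19 that fell. With a term for Y-linked counts, 3 members were called lower, 4 fell, 0 rose and the median was -0.49. Scaling by total counts gave 19 members that fell and a median of -0.76. With no fold or mean count minimum, 1556 genes were lower and 1243 higher, with 1 member higher, and at an adjusted p of 0.01, 292 and 129 genes and 1 member. Values near 0 turned sign. Under total counts these were Rad51d (-0.043), Slx4 (-0.043), Rbl1 (-0.036) and Xrcc2 (-0.16), which was also -0.030 under upper quartile scaling and -0.039 without the third retinae. With 1 retina left out, Xrcc2 ran from -0.13 to 0.10, Fancm from -0.30 to 0.020 and Rbl1 from -0.15 to 0.36. The causes were not tested.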

Other observations

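Partners of the same complex were set side by side, in comparisons chosen after values had been seen and with no test of the difference between genes. *Blm* had a log2 fold change of -0.33 (adjusted p = 0.354). Among its partners in the dissolvase that unlinks joined chromosomes, *Rmi2* fell by 2.32 on the log2 scale (adjusted p = 0.0131), with normalized counts of 6.88, 18.9 and 20.9 in the TKO and 89.4, 101 and 44.9 in the DKO, while *Rmi1* had -0.12 (adjusted p = 0.286) and *Top3a* -0.31 (adjusted p = 0.144). Among nucleases that cut crossed strands, *Gen1* fell by 1.71 (adjusted p = 0.0154), beside -0.83 for *Eme1* and -0.14 for *Mus81*, neither of which passed the test. *Eme2*, the other partner of *Mus81*, had 0.00 (adjusted p = 0.996).

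*Dna2*, the nuclease that resects beside *Blm* and *Exo1*, fell by 1.5 (adjusted p = 0.0138), and *Mre11a*, the nuclease of the complex with *Nbn* and *Rad50*, had -0.11 (adjusted p = 0.626). The enzyme that removes ubiquitin from the FANCD2-FANCI pair, *Usp1*, fell by 0.83 (adjusted p = 0.0195), and its activator *Wdr48* had 0.11 (adjusted p = 0.300). In the BRCA1-A complex, which holds BRCA1 at ubiquitin chains, *Brcc3*, *Uimc1*, *Babam1* and *Fam175a* had values of 0.14, 0.10, 0.08 and 0.13, with adjusted p from 0.339 to 0.664. *Dmc1*, the recombinase of meiosis, fell by 1.77 (adjusted p = 0.00815) on normalized counts of 19.5 to 24.5 in the TKO and 56.1 to 96.9 in the DKO, and *Fignl1*, an ATPase that acts in recombination, fell by 2.14 (adjusted p = 0.00975).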
